A study of Mus musculus with 6 samples.

Results

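Fatty acid synthesis and desaturation was followed through 10 genes that carry acetyl groups to saturated, monounsaturated and polyunsaturated fatty acids. They were chosen by symbol through the mouse GRCm38 annotation of GENCODE release M21. Each of the 10 symbols matched a single row of the 52550 gene rows in every count table. All 10 genes passed the filter on low counts and were tested, and all had counts in both groups.

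Transcripts were counted by a tag near their 3' ends in 2 groups of 3 libraries each, all from cardiomyocytes of mice at postnatal day 1. In the GR-cKO group the glucocorticoid receptor gene Nr3c1 had been deleted in cardiomyocytes, and the control group is labelled only as ctrl. The labels name neither the Cre driver nor the deleted exon nor the control's alleles, and they call the libraries biological replicates without naming the animals or cultures behind each. If these were shared, the p-values reflect technical scatter only. Cells of both groups were purified by magnetic sorting, kept for 48 hours with serum and then starved of serum for 24 hours, and both groups carry the treatment label ctrl.

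The libraries held 19371508 to 22583596 gene counts, and a gene with a count of 0 could still have stood at 0.133 to 0.155 CPM (3 counts scaled to library size, counting error only). CPM is a gene's count per 1000000 gene counts of its library, corrected by TMM factors. Nr3c1 stood at 46.1, 42.7 and 44.1 CPM in GR-cKO, against 68.1, 73.8 and 72.3 CPM in control. The group means were 44.3 ± 1.7 CPM in GR-cKO and 71.4 ± 2.95 CPM in control (SD, n = 3 each, edgeR adjusted p = 3.3e-06). Since the deleted exon is not named, a tag at the 3' end may report on transcripts that carry the deletion. Where the remaining Nr3c1 tags in GR-cKO came from was not tested. Cardiomyocyte markers were abundant in every library, with all 10 listed genes detected and summed levels of 43351 to 46436 CPM in GR-cKO and 33733 to 35241 CPM in control. Xist was at 0 to 0.0995 CPM in GR-cKO and 271 to 292 CPM in control, and the Y-linked gene Ddx3y at 86.3 to 94.6 CPM in GR-cKO and 18.3 to 21.3 CPM in control. Each of the 3 control libraries thus held transcripts of both sexes, at similar levels in all 3. Whether the libraries of a group came from a shared pool of cells was not tested. The sex of the cells and the genotype cannot be told apart in any comparison that follows.

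Cells make fatty acids from acetyl-CoA, which comes from citrate through Acly or from acetate through Acss2. The acetyl-CoA carboxylases Acaca and Acacb turn it into malonyl-CoA, Fasn joins malonyl units into palmitate, and Elovl6 lengthens palmitate to stearate. The stearoyl-CoA desaturases Scd1 and Scd2 put the first double bond into these chains, while Fads1, Fads2 and Elovl5 build long polyunsaturated fatty acids from those in the diet. The sterol-regulated SREBP transcription factors drive most of these genes. The heart burns far more fatty acid than it makes, and its malonyl-CoA is best known as a brake on the entry of fatty acids into mitochondria.

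Elovl6, Fasn and Acaca, which build and lengthen saturated chains, were lower in GR-cKO and the acetate-activating enzyme Acss2 was higher. Neither the 4 desaturases nor Acacb and Elovl5 passed the test. Elovl6 was 2.24-fold lower, Fasn 1.33-fold and Acaca 1.33-fold lower, and Acss2 was 1.32-fold higher (edgeR quasi-likelihood test, adjusted p below 0.05 over 14386 genes). That is 4 of 10 genes, 3 lower and 1 higher, where 14.8% of all tested genes passed, 7.19% lower and 7.63% higher. The libraries of the groups did not overlap for 5 of the 10 genes, 3 lower and 2 higher, against 29.9% of all genes, 14.7% lower and 15.2% higher. The median log2 fold change of the 10 genes was -0.15 (GR-cKO over control), against -0.01 over all genes tested. Scaling by the ERCC spike-ins in place of TMM gave 1355 genes higher and 522 lower, against 1097 higher and 1035 lower, and moved the median of all genes to 0.09. In bulk RNA, fewer cells that express a gene and less of its RNA per cell cannot be told apart.

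**Figure D1:**
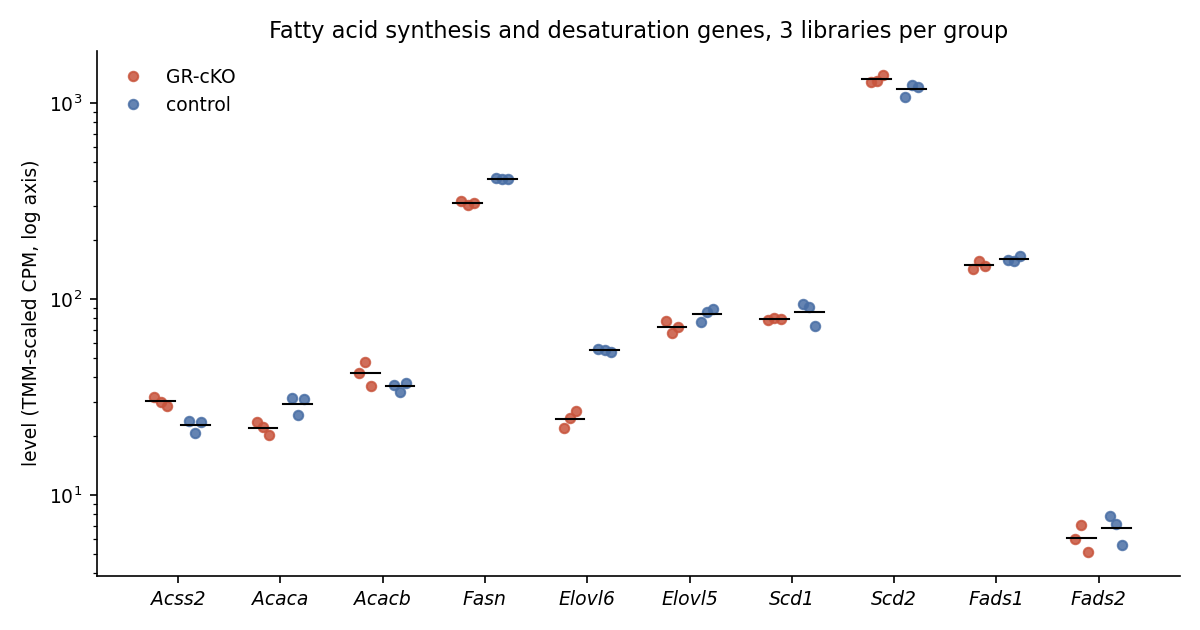
Levels of the 10 genes in TMM-scaled CPM on a log axis, ordered by step of the pathway. Points are libraries (3 GR-cKO, 3 control) and lines are group means. The groups are separate for Acss2, Acaca, Fasn, Elovl6 and Scd2 and overlap for the other 5 genes.

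Start regions of the 4 genes that passed are shown because these genes moved in both directions while sharing known regulators. Each run is 300 bases, 250 before to 50 after the RefSeq start (GRCm38.p6), written 5′ to 3′ on the gene's strand, with capitals on every match to the 6 motifs described after them. The windows are chr11:120824498-120824797 on the minus strand for Fasn, chr11:84195188-84195487 on the plus strand for Acaca, chr3:129532136-129532435 on the plus strand for Elovl6 and chr2:155517793-155518092 on the plus strand for Acss2. The Acaca window lies inside the annotated gene.
Fasn: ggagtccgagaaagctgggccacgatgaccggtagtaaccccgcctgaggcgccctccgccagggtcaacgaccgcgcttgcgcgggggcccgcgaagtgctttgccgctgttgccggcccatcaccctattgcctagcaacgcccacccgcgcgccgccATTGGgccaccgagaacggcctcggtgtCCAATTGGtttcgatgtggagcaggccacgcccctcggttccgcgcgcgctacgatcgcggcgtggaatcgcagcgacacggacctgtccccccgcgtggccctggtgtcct
Acaca: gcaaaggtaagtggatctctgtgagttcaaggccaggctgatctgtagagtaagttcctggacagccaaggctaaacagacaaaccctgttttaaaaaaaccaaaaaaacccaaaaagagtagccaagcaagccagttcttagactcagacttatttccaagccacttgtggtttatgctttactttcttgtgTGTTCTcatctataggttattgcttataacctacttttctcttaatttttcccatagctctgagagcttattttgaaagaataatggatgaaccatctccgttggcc
Elovl6: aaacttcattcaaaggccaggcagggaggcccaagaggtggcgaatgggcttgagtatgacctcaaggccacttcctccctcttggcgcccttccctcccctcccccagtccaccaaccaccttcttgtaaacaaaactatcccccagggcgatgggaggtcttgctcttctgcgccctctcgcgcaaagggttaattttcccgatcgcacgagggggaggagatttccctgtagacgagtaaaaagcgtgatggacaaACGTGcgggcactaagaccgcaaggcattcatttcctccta
Acss2: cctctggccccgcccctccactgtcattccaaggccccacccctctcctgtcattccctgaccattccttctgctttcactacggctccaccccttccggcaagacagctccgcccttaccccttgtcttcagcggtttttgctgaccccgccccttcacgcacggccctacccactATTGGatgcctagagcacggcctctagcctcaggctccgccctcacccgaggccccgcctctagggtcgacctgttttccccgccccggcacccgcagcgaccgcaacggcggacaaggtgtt

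Both strands were searched, and 7 of the 10 genes had a window in the RefSeq table. The Acacb window, like that of Acaca, lies inside the annotated gene (it begins at 114165268 and the gene at 114146535). CCAAT, the box bound by NF-Y, began at -90, -62 and -59 from the start of Fasn (the matches at -62 and -59 share bases) and at -73 in Acss2. It was found in 4 of the 7 genes with a window, and in 37.4% of all 32851 windows of this length. The sterol element TCACNCCA was found in none of the 7 windows and in 4.36% of all windows, and the full glucocorticoid element, AGAACA and TGTTCT with 3 bases between them, in none of the 7 and in 0.00913% of all. Its first part alone, AGAACA, was found at -57 in Acaca alone among the 7, and in 19.0% of all windows. The hypoxia core ACGTG was found in Elovl6, at 9 bases after the start, and in Acacb and Elovl5 (19.6% of all windows). In Elovl5 it lies within the E-box CACGTG, which was found in no other of the 7 windows and in 7.15% of all. These are matches of letters only.

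Acss2 makes acetyl-CoA from acetate in the cytosol and nucleus (ENSMUSG00000027605, GRCm38 chromosome 2, 155517948 to 155585724, plus strand). It stood at 31.6, 30.0 and 28.7 CPM in the GR-cKO libraries, against 24.0, 20.8 and 23.7 CPM in the control libraries. All 3 GR-cKO libraries lay above all 3 control libraries. The log2 fold change was 0.40 ± 0.11 (SE, edgeR adjusted p = 0.0188). Without control replicate 2, GR-cKO replicate 1 or GR-cKO replicate 2 the edgeR adjusted p was 0.113, 0.0847 and 0.059, so the call rested on each of these libraries. Exons of Acss2 overlap exons of Ggt7 and Gss on the opposite strand, and whether counting used the strand is not given in the sources used here. Gss had 609, 578 and 415 raw counts in GR-cKO and 494, 416 and 447 in control. Ggt7 had 67, 58 and 29 raw counts in GR-cKO and 33, 24 and 43 in control.

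Acaca and Acacb both make malonyl-CoA. Acaca is the cytosolic carboxylase whose malonyl-CoA feeds synthesis (ENSMUSG00000020532, chromosome 11, 84129672 to 84401651, plus strand). It stood at 23.6, 22.2 and 20.4 CPM in GR-cKO, against 31.3, 25.7 and 31.1 CPM in control. Every GR-cKO library was below every control library, with a log2 fold change of -0.41 ± 0.12 (SE, edgeR adjusted p = 0.0209). This call was the least stable of the 4. The edgeR adjusted p was 0.0868 without control replicate 1, 0.0754 without control replicate 3, 0.0666 without GR-cKO replicate 2, 0.0881 without GR-cKO replicate 3 and 0.137 with scaling by the ERCC spike-ins.

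Acacb is the carboxylase at the outer mitochondrial membrane, where malonyl-CoA inhibits carnitine palmitoyltransferase (ENSMUSG00000042010, chromosome 5, 114146535 to 114250761, plus strand). Its levels were 42.0, 47.6 and 36.1 CPM in GR-cKO and 36.5, 33.8 and 37.5 CPM in control. The groups overlapped, and the gene did not pass (log2 fold change 0.22 ± 0.11, edgeR adjusted p = 0.196). The 95% interval of its log2 fold change ran from -0.0016 to 0.45.

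Fasn is the multi-domain synthase that builds palmitate (ENSMUSG00000025153, chromosome 11, 120805846 to 120824547, minus strand). Its levels were 315, 302 and 309 CPM in GR-cKO, against 415, 412 and 409 CPM in control. The libraries of each group lay close together and the groups were far apart. Fasn fell by 0.42 ± 0.06 on the log2 scale (SE, edgeR adjusted p = 3.1e-05), and it stayed past the threshold under all 15 alternatives, with log2 fold changes of -0.43 to -0.32.

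Elovl6 elongates palmitate to stearate and palmitoleate to vaccenate (ENSMUSG00000041220, chromosome 3, 129532355 to 129638495, plus strand). It had 22.0, 24.6 and 26.9 CPM in GR-cKO, against 55.8, 54.9 and 54.0 CPM in control. No other gene of the 10 differed by as much. The log2 fold change was -1.16 ± 0.10 (SE, edgeR adjusted p = 1.16e-08), past the threshold under all 15 alternatives with a range of -1.23 to -1.07. An antisense transcript, Gm35986, overlaps its exons and had 0 to 6 counts per library.

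Elovl5, which elongates polyunsaturated chains after the first desaturation, differed less (ENSMUSG00000032349, chromosome 9, 77917364 to 77984519, plus strand). It stood at 77.6, 66.9 and 72.3 CPM in GR-cKO, against 76.4, 86.2 and 89.4 CPM in control. The groups overlapped by GR-cKO replicate 1 and control replicate 1, and the gene did not pass (log2 fold change -0.22 ± 0.09, edgeR adjusted p = 0.103). Without control replicate 1 the edgeR adjusted p was 0.0479.

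Scd2 was by far the most abundant of the 10 genes, above 99.5% of all tested genes by mean level. It is a stearoyl-CoA desaturase that makes oleate and palmitoleate, and the main form in the newborn mouse and in brain. Scd1 is the form best known from adult liver and fat. Scd2 (ENSMUSG00000025203, chromosome 19, 44293674 to 44306864, plus strand) and Scd1 (ENSMUSG00000037071, chromosome 19, 44394455 to 44407879, minus strand) lie 87.6 kb apart with their 3' ends facing each other.

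Scd2 had 1286, 1300 and 1398 CPM in GR-cKO, against 1073, 1243 and 1211 CPM in control. The 3 GR-cKO libraries all lay above the control libraries, but the difference did not pass in the edgeR fit (log2 fold change 0.18 ± 0.06, edgeR adjusted p = 0.0671). It passed with limma voom (adjusted p = 0.0387), with DESeq2 (adjusted p = 0.0487) and without a filter on low counts (edgeR adjusted p = 0.0378), so its call depended on the tool and the filter.

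Scd1 was at 78.2, 80.1 and 78.9 CPM in GR-cKO, against 94.7, 91.3 and 73.2 CPM in control. The GR-cKO values fell inside the range of the control values, which spread more widely. The log2 fold change was -0.13 ± 0.09 with a 95% interval of -0.32 to 0.06 (edgeR adjusted p = 0.412).

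Fads1 and Fads2 put further double bonds into polyunsaturated chains. Fads1 (ENSMUSG00000010663, chromosome 19, 10182888 to 10196877, plus strand) and Fads2 (ENSMUSG00000024665, chromosome 19, 10062765 to 10101746, minus strand) point away from each other, 81.1 kb apart. Fads1, the later of these steps, had 142, 157 and 148 CPM in GR-cKO and 159, 156 and 165 CPM in control. The groups overlapped by a single GR-cKO library, and the 95% interval of the log2 fold change was -0.25 to 0.04 (edgeR adjusted p = 0.399). Fads2, the first step, was the scarcest of the 10 genes, with 6.003, 7.07 and 5.15 CPM in GR-cKO and 7.81, 7.11 and 5.58 CPM in control. Its 95% interval ran from -0.63 to 0.29 (edgeR adjusted p = 0.705) and so held the change seen for Fasn, which was not detectable for Fads2 at this depth.

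**Figure D2:**
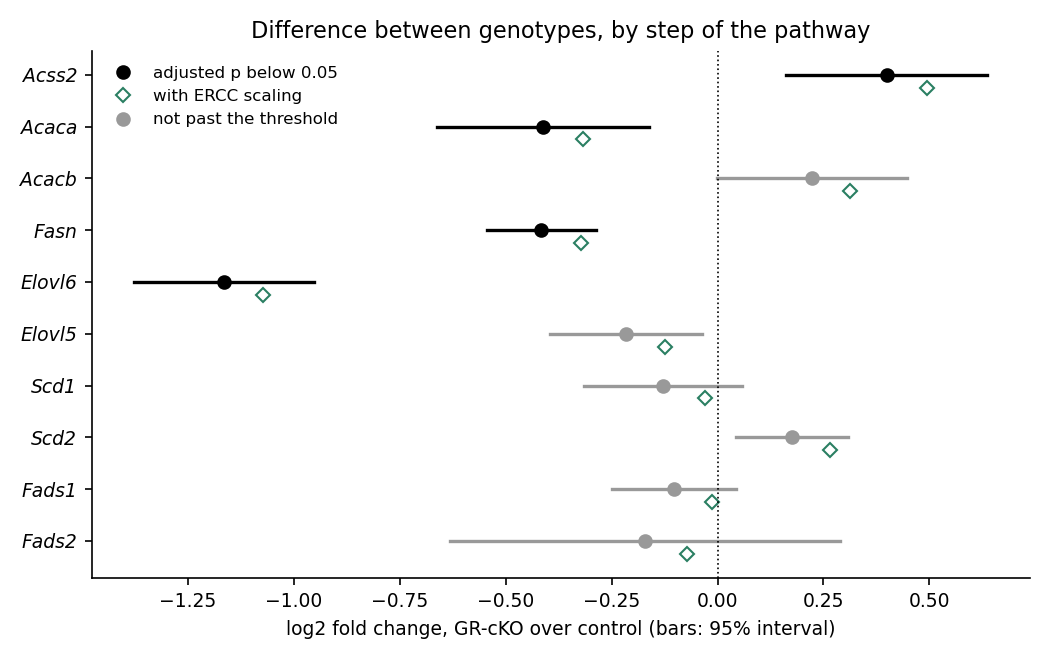
Log2 fold change of each gene, GR-cKO over control, with its 95% interval, ordered by step of the pathway. Filled black points passed the edgeR threshold, grey points did not, and open diamonds give the value with ERCC spike-in scaling. Elovl6, Fasn and Acaca lie left of 0 and Acss2 right of it, and no gene changes side under ERCC scaling.

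The genes differed in level over more than 2 orders of magnitude. A 3' method counts 1 tag per transcript and so needs no division by length, but how well each 3' end is primed can still shift levels between genes. In GR-cKO the order by mean CPM was Scd2 (1328), Fasn (309), Fads1 (149), Scd1 (79.1), Elovl5 (72.3), Acacb (41.9), Acss2 (30.1), Elovl6 (24.5), Acaca (22.1) and Fads2 (6.07). In control the mean CPM was 1176 for Scd2, 412 for Fasn, 160 for Fads1, 86.4 for Scd1, 84.0 for Elovl5, 54.9 for Elovl6, 35.9 for Acacb, 29.4 for Acaca, 22.8 for Acss2 and 6.83 for Fads2. The neighbours Scd1 and Elovl5 did not differ beyond their spread in control, with 86.4 ± 11.6 and 84.0 ± 6.8 CPM (SD, n = 3), nor did Elovl6 and Acaca in GR-cKO, with 24.5 ± 2.5 and 22.1 ± 1.6 CPM. Elovl6 stood above both carboxylases in control and level with the lower one in GR-cKO.

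The summed level of the 10 genes differed by less than its spread, with 2062 ± 53.8 CPM in GR-cKO and 2068 ± 83.8 CPM in control (SD, n = 3 each). Its make-up differed. Scd2 took 64.4% ± 1.3 of the sum in GR-cKO and 56.8% ± 2.1 in control (SD, n = 3 each). Fasn took 15.0% ± 0.5 in GR-cKO and 19.9% ± 0.9 in control. Elovl6 took 1.19% ± 0.09 in GR-cKO and 2.66% ± 0.15 in control.

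Ratios between related enzymes within a library do not depend on how libraries are scaled. With 3 libraries against 3, an exact two-sided permutation test cannot go below 0.1, so none of the 5 ratios compared could pass a threshold of 0.05. The log2 ratio of Elovl5 to Elovl6 counts was 1.82, 1.44 and 1.43 in GR-cKO, against 0.45, 0.65 and 0.73 in control. The groups did not overlap, and the ratio was 1.93-fold higher in GR-cKO (exact p = 0.1, 0.167 after Benjamini-Hochberg adjustment over the 5 ratios).

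The log2 ratio of Acaca to Acacb was -0.83, -1.10 and -0.82 in GR-cKO, against -0.22, -0.39 and -0.27 in control, again without overlap. The difference was -0.62 on the log2 scale (exact p = 0.1, adjusted 0.167). Mlycd, which destroys malonyl-CoA, did not pass by itself (35.9 ± 1.1 CPM in GR-cKO and 31.3 ± 2.6 CPM in control, SD, n = 3). The log2 ratio of Acaca to Mlycd was -0.70 ± 0.15 in GR-cKO and -0.09 ± 0.26 in control (SD, n = 3 each, exact p = 0.1, adjusted 0.167), also without overlap.

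The log2 ratio of Scd1 to Scd2 was -4.07 ± 0.07 in GR-cKO and -3.77 ± 0.27 in control (SD, n = 3 each), with overlap (exact p = 0.3, adjusted 0.375). This difference of -0.30 became -0.16 without control replicate 1 and -0.43 without control replicate 3. For Fads1 to Fads2 the log2 ratio was 4.62 ± 0.19 in GR-cKO and 4.56 ± 0.29 in control (SD, n = 3 each, exact p = 0.7, adjusted 0.7). The difference of 0.06 became -0.04 without control replicate 1 and -0.04 without GR-cKO replicate 3.

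**Figure D3:**
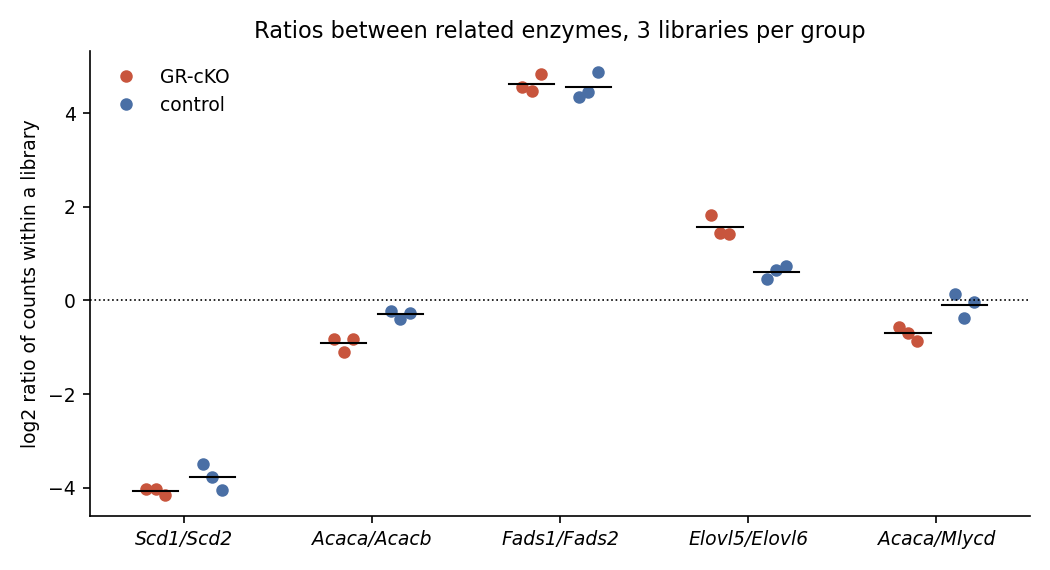
Log2 ratio of the counts of related enzymes within each library (0.5 added to each count). Points are libraries, 3 GR-cKO and 3 control for each ratio, and lines are means. The groups are separate for Elovl5/Elovl6, Acaca/Acacb and Acaca/Mlycd and overlap for Scd1/Scd2 and Fads1/Fads2.

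Regulators of the pathway were counted next. Of 20 regulators tested, 2 were higher and 1 was lower, a share close to the 14.8% of all genes. Insig1, an endoplasmic reticulum protein that holds SREBP back and is itself a sterol-responsive target, had 53.7, 53.4 and 53.7 CPM in GR-cKO, against 73.4, 79.0 and 79.6 CPM in control (log2 fold change -0.53 ± 0.08, edgeR adjusted p = 5.8e-05). Its relative Insig2 had 49.4, 39.6 and 46.8 CPM in GR-cKO, against 31.1, 33.1 and 38.5 CPM in control (log2 fold change 0.40 ± 0.11, edgeR adjusted p = 0.0129). In both genes the groups did not overlap, and they moved in opposite directions.

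Mlxipl, the glucose-responsive lipogenic factor ChREBP, was scarce, at 3.79, 3.43 and 3.09 CPM in GR-cKO and 2.35, 1.12 and 0.247 CPM in control (edgeR adjusted p = 0.0448). The groups did not overlap, but its edgeR adjusted p was 0.0664 to 0.135 when any library except control replicate 1 was left out, so the call rested on 5 of the 6 libraries. For Insig2 the edgeR adjusted p was 0.0703 without control replicate 1, 0.0629 without control replicate 2 and 0.089 without GR-cKO replicate 1. The SREBP genes, named here as the best known regulators and not by the rule, did not pass. Srebf1 was at 41.1 ± 4.1 CPM in GR-cKO and 42.9 ± 4.7 CPM in control, and Srebf2 at 90.4 ± 15.6 CPM in GR-cKO and 106 ± 7.3 CPM in control (SD, n = 3 each). The groups overlapped for Srebf1. For Srebf2 all GR-cKO libraries lay below all control libraries, with a 95% interval of the log2 fold change of -0.43 to -0.02 (edgeR adjusted p = 0.145).

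Of 12 tested genes for acetyl-CoA, malonyl-CoA and NADPH supply, 4 were lower and none higher, where 7.19% of all tested genes were lower and 7.63% higher. The median log2 fold change of the list was -0.19, against -0.01 over all genes. Acly, which splits citrate into acetyl-CoA in the cytosol, had 90.5, 89.4 and 91.2 CPM in GR-cKO, against 138, 135 and 142 CPM in control. The groups lay far apart, with a log2 fold change of -0.62 ± 0.07 (edgeR adjusted p = 1.3e-06). Aacs, which makes acetoacetyl-CoA for lipid synthesis, stood at 25.8, 26.9 and 35.8 CPM in GR-cKO, against 49.4, 55.7 and 46.0 CPM in control (log2 fold change -0.78 ± 0.12, edgeR adjusted p = 4.1e-05).

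Idh1, a cytosolic source of NADPH, stood at 106, 92.8 and 117 CPM in GR-cKO, against 129, 159 and 142 CPM in control (log2 fold change -0.45 ± 0.09, edgeR adjusted p = 0.0008). Acss1, the mitochondrial counterpart of Acss2, was at 8.35, 8.21 and 11.8 CPM in GR-cKO, against 12.7, 13.1 and 17.4 CPM in control (edgeR adjusted p = 0.025). It moved opposite to Acss2. Its edgeR adjusted p was 0.149 without control replicate 3, 0.118 without GR-cKO replicate 1, 0.123 without GR-cKO replicate 2 and 0.0786 with ERCC scaling.

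Elongases and desaturases outside the 10 genes, and the enzymes they work with, were counted as a further list. Of 16 tested, 5 were lower and 1 was higher, against 7.19% lower and 7.63% higher over all tested genes, and the median log2 fold change of the list was -0.18. The lower count depended on the setting. It was 1 with ERCC scaling (with 2 higher), 2 without control replicate 2 or GR-cKO replicate 2, and 3 without control replicate 1 or GR-cKO replicate 3. The higher count was 2 without control replicate 1 and 0 without replicate 2 or 3 of either group. Hsd17b12 and Hacd3, which carry out the reduction and dehydration steps after each elongase, were both lower. Hsd17b12 was at 79.5 ± 7.9 CPM in GR-cKO and 96.9 ± 3.6 CPM in control, and Hacd3 at 27.4 ± 1.1 CPM in GR-cKO and 35.4 ± 1.9 CPM in control (SD, n = 3 each). The cytochrome b5 genes Cyb5b and Cyb5a had log2 fold changes of -0.37 ± 0.08 and -0.26 ± 0.08 (SE). Cyb5a passes electrons to the desaturases of the endoplasmic reticulum, and Cyb5b is the form of the outer mitochondrial membrane.

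Scd4, a desaturase described mainly in heart, lies in the same cluster as Scd1 and Scd2. It had 2.26, 3.43 and 2.16 CPM in GR-cKO, against 6.04, 5.01 and 6.32 CPM in control, and was lower under all 15 alternatives (log2 fold change -1.14 ± 0.28, edgeR adjusted p = 0.006). Of the 50-base words in the last 500 bases of its transcript, 20.8% also occur in other genes, so some of its tags may not be its own and its level is uncertain. The muscle dehydratase Hacd1 was the riser, at 254 ± 12.6 CPM in GR-cKO and 220 ± 7.7 CPM in control (SD, n = 3). Hacd1 and Cyb5a were named after their values were seen. Over the alternatives the adjusted p reached 0.286 for Hsd17b12, 0.147 for Hacd3, 0.349 for Cyb5a and 0.0828 for Cyb5b, each with ERCC scaling, and 0.15 for Hacd1 without GR-cKO replicate 2, so these calls depended on the setting. When a library was left out, the edgeR adjusted p was 0.0607 to 0.0797 for Hacd3 (control replicates 1 and 2, GR-cKO replicates 1 and 2) and 0.0717 to 0.115 for Hsd17b12 (control replicates 1 and 2, GR-cKO replicates 2 and 3). It was 0.0883 to 0.146 for Cyb5a (control replicate 2, GR-cKO replicates 2 and 3) and 0.106 to 0.15 for Hacd1 (replicates 2 and 3 of both groups).

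**Figure D4:**
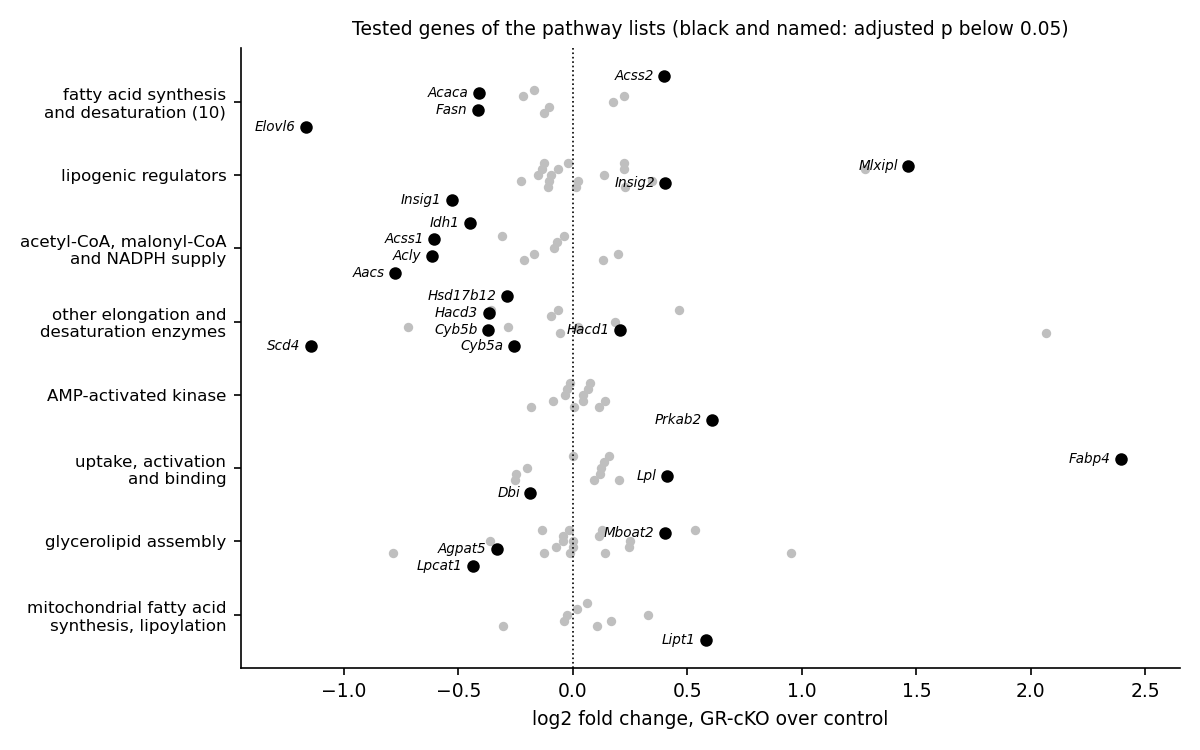
Log2 fold change, GR-cKO over control, of every tested gene in 8 pathway lists. Black named points passed the edgeR threshold and grey points did not. The supply list has 4 lower calls and no higher call among 12 tested genes. The list of other elongation and desaturation enzymes has 5 lower calls and 1 higher call among 16. Among all tested genes 7.19% were lower and 7.63% higher. The 5 lower calls depended on the setting and became 1 with ERCC scaling.

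AMP-activated kinase switches off both carboxylases by phosphorylation. Of 13 genes for subunits and activators of AMP-activated kinase, 1 was higher and none lower, a share below the 14.8% of all genes. That gene was Prkab2, the beta subunit typical of muscle, with 184, 171 and 178 CPM in GR-cKO, against 115, 112 and 123 CPM in control (log2 fold change 0.61 ± 0.07, edgeR adjusted p = 1.3e-06). Its catalytic partners Prkaa1 and Prkaa2 were at 27.4 ± 0.6 and 74.0 ± 5.7 CPM in GR-cKO and 27.3 ± 0.3 and 68.4 ± 6.4 CPM in control (SD, n = 3 each), and were chosen after their values were seen.

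Cells also take up and bind ready-made fatty acids. Of 13 tested genes for this, 2 were higher and 1 was lower, against 7.63% higher and 7.19% lower over all tested genes, with a median log2 fold change of 0.12. Lpl, which frees fatty acids from lipoproteins, had 744, 740 and 731 CPM in GR-cKO, against 543, 562 and 562 CPM in control (log2 fold change 0.41 ± 0.06, edgeR adjusted p = 1.8e-05). Fabp4, a fatty acid binding protein of capillary endothelium and fat, had 74.6, 70.0 and 87.8 CPM in GR-cKO, against 12.6, 12.2 and 19.4 CPM in control (5.26-fold higher, edgeR adjusted p = 9.7e-12). Dbi, the acyl-CoA binding protein, passed with a small difference (log2 fold change -0.19 ± 0.06, edgeR adjusted p = 0.04), and its adjusted p reached 0.583 with ERCC scaling and was 0.0708 to 0.181 when any library except GR-cKO replicate 1 was left out.

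Markers of several other cell types also differed between the groups. Over all tested genes 14.8% passed, 7.63% higher and 7.19% lower. Of 10 endothelial markers 7 were higher and 1 was lower, with summed levels of 1302 to 1412 CPM in GR-cKO and 1072 to 1109 CPM in control. Of 10 fibroblast markers 4 were higher and 1 was lower (4800 to 4920 CPM in GR-cKO and 3716 to 3903 CPM in control), and of 8 smooth muscle and pericyte markers 5 were higher (4409 to 4631 CPM in GR-cKO and 3721 to 3833 CPM in control). Leukocyte markers summed to 35.7 to 56.0 CPM in GR-cKO and 14.1 to 18.4 CPM in control, with 2 of 6 tested higher. Lyz2 made up most of this sum, at 29.6 to 47.8 CPM in GR-cKO and 10.3 to 14.5 CPM in control. Acta2 made up most of the smooth muscle and pericyte sum, at 3717 to 3950 CPM in GR-cKO and 3239 to 3349 CPM in control. Epicardial markers summed to 101 to 117 CPM in GR-cKO and 110.2 to 114 CPM in control, with 2 higher and 3 lower of 8. Cardiomyocyte markers had 8 of 10 higher. The part of these shifts in the differences above was not tested.

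Fat cells and glia are rich in these enzymes. Of 10 adipocyte markers 6 were at 0 in all 6 libraries (Plin1, Cidec, Lep, Cfd, Pck1 and Ucp1), and the list summed to 6.52 to 9.21 CPM in GR-cKO and 7.90 to 10.9 CPM in control. Markers of Schwann cells and glia summed to 137 to 139 CPM in GR-cKO and 121 to 142 CPM in control, with none of 5 tested past the threshold.

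Cholesterol synthesis shares its SREBP regulators with fatty acid synthesis and is given here as counts. Of its 20 genes, 15 were lower and none higher in the edgeR test, with a median log2 fold change of -0.50 and summed levels of 1778 to 1812 CPM in GR-cKO and 2420 to 2463 CPM in control. The corresponding numbers for the 10 fatty acid genes were 3 lower and 1 higher, with a median of -0.15. Among all tested genes 7.19% were lower and 7.63% higher, with a median of -0.01. The difference between the lists was not tested.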

How the data were processed

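Libraries were made with a QuantSeq 3' mRNA kit in the forward orientation, per the labels' protocols. The authors deposited raw counts per gene in 1 table per library, and per the submitters' processing notes the tools included STAR 2.5.4a and featureCounts 1.6.2 with cutadapt 1.16, and the build was GRCm38. For strand and multiply mapped reads the settings are not given in the sources used. Of 52649 rows, 52550 were genes, and the ERCC and SIRV spike-in rows (1.98% to 2.36% of all counts) stayed out of library sizes and tests. GENCODE M21 named 52403 of the genes.

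GR-cKO was compared with control by edgeR 4.0.16 (R 4.3.3), using TMM factors, its default filter, the quasi-likelihood test and Benjamini-Hochberg adjustment over 14386 genes, with a threshold of 0.05. Levels are TMM-scaled CPM. The SE is the absolute log2 fold change over the square root of F, and the fit was tested on simulated data. Alternatives used DESeq2 1.42.0, limma 3.58.1 voom, other scalings and filters, a replicate block and leaving out each library. Pairs of libraries within a group differed beyond sampling noise (median chi-square 2.49 to 3.71 per gene).

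Words of 50 bases from the last 500 bases of the coding transcripts were sought in all other genes. None was shared for 7 of the 10 genes. Words were shared by Acaca with the pseudogene Gm5182 (22.4%), by Elovl6 with Gm11295 (8.73%) and by Acss2 with its antisense gene (3.6%), and these partners had at most 4 counts in a library. Since the setting for multiply mapped reads is not given, these counts cannot show how shared tags were assigned.

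The genes and lists were chosen with earlier results of these data known. The genes named were the 10, Nr3c1, and of each list up to 4 with the smallest p past the threshold, or 2 where none passed. Of the 10 genes for mitochondrial fatty acid synthesis 9 matched an identifier. Single cholesterol synthesis genes are not reported here.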

Additional observations from a re-analysis of the deposited data

How the results depend on the processing

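Across 15 alternatives (9 settings and 6 libraries left out), all 10 genes kept the sign of their fold change. Elovl6 and Fasn passed in all 15, Acss2 in 12 and Acaca in 10. The count of the 10 genes called higher was 1, and 2 without a filter, with DESeq2, with limma voom and with the replicate block, where Scd2 was added (edgeR adjusted p = 0.0318 with the block). It ranged from 0 to 1 when a library was left out. The count called lower was 3, 2 with ERCC scaling and 2 to 3 when a library was left out. ERCC scaling gave 1355 genes higher and 522 lower among all genes, against 1097 and 1035 with TMM, and a median log2 fold change of 0.09 in place of -0.01. The log2 ratio difference of Fads1 to Fads2 ranged from -0.04 to 0.23 over the libraries left out (-0.0442 without control replicate 1 and -0.0428 without GR-cKO replicate 3). The cause of these shifts was not tested. Among regulators, Srebf1 kept its sign in 13 of 15 alternatives, and ERCC scaling was among those where it turned (log2 fold change 0.03). Whether replicate numbers pair libraries could not be decided from 3 libraries per group. The deviations of same-numbered libraries from their group means correlated at -0.0001, 0.04 and 0.02. GR-cKO replicates 2 and 3 correlated best with the control of their own number, and GR-cKO replicate 1 with control replicate 3 (0.03). The replicate block gave 2353 genes called, against 2132 without it. For the ratios, the block had a smallest p of 0.25. Depth limited scarce genes such as Fads2 (SE of the log2 fold change 0.22) and Mlxipl (0.49).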

Other observations

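Glycerolipid assembly lies downstream of fatty acid synthesis. Of its 21 tested genes 1 was higher and 2 were lower in GR-cKO, a share close to the 14.8% of all tested genes, with a median log2 fold change of -0.01. Mboat2, a lysophospholipid acyltransferase with a preference for monounsaturated chains, was at 37.0 ± 2.1 CPM in GR-cKO and 28.0 ± 2.0 CPM in control (SD, n = 3 each, log2 fold change 0.40 ± 0.11 SE, edgeR adjusted p = 0.011). Agpat5 and Lpcat1, acyltransferases of phospholipid synthesis, had log2 fold changes of -0.33 ± 0.09 and -0.44 ± 0.15 (SE). The edgeR adjusted p of Mboat2 was 0.0579 without control replicate 1 and 0.0661 without GR-cKO replicate 2, and that of Agpat5 was 0.051 without control replicate 1, 0.106 without GR-cKO replicate 2 and 0.18 with ERCC scaling. Lpcat1 passed in 7 of 15 alternatives. Its adjusted p was 0.0563 to 0.263 without replicates 1 or 3 of control or 2 or 3 of GR-cKO, 0.168 with ERCC scaling, 0.0507 with DESeq2 size factors, 0.0521 with upper quartile scaling and 0.0551 with DESeq2.

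Mitochondria have a separate fatty acid synthesis pathway that feeds lipoic acid. Of 9 tested genes 1 was higher and none lower, against 7.63% higher and 7.19% lower over all tested genes. Lipt1, which transfers lipoyl groups to mitochondrial dehydrogenases, was at 13.2 ± 2.5 CPM in GR-cKO and 8.83 ± 0.11 CPM in control (SD, n = 3 each, log2 fold change 0.58 ± 0.17 SE, edgeR adjusted p = 0.0249). Its edgeR adjusted p was 0.0618 without control replicate 1, 0.0688 without control replicate 2 and 0.192 without GR-cKO replicate 1.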
